A study of Mus musculus with 23 samples.

Results

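The 10 genes followed here encode integrin subunits of the vessel wall or, for Itgbl1, an integrin-like protein, and were measured in mouse mesenteric arteries, the small arteries that feed the gut. Some mice were infused with angiotensin II (Ang II), a hormone that constricts vessels and raises blood pressure. The genes were Itga1, Itga5, Itga7, Itga8, Itga11, Itgav, Itgb1, Itgb3, Itgb5 and Itgbl1, chosen by name as the table rows whose gene symbol equals 1 of these symbols. All 10 were found among the 39179 genes of the table. The animals were male C57BL/6J mice of 10 to 12 weeks with no transgene or deletion. Mice received Ang II under the skin from osmotic minipumps at 1000 ng per kg and minute for 7 days (n = 6 libraries) or underwent sham surgery with arteries taken at 7 days (n = 6). Ang II was given at the same dose for 14 days to the mice of the next group (n = 5), and their sham group was taken at 14 days (n = 6). Per the labels, whole arteries were freed of fat and veins and total RNA was sequenced.

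Integrins are receptors of 1 alpha and 1 beta chain that span the cell membrane, bind the matrix outside the cell and link it through adaptor proteins to actin inside. Which alpha chain joins which beta chain decides what is bound: Itga5, Itga8 and Itgav build receptors for the arginine-glycine-aspartate (RGD) motif of fibronectin, vitronectin and related proteins, Itga1 and Itga11 build collagen receptors, and Itga7 builds a laminin receptor. In the artery wall these receptors hold smooth muscle cells and fibroblasts to the matrix and carry tension between the matrix and the contractile apparatus, and receptors with Itgav can also release TGF-beta from its latent complex.

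Values are normalized read counts as the authors deposited them, here called normalized values. Libraries held 8670036 to 18817155 reads in the 7-day Ang II group and 4471038 to 17470989 in its sham group, and 15507654 to 21509283 in the 14-day Ang II group and 8807407 to 18004347 in its sham group. The fewest reads behind any value were 50, for Itga11 in a 7-day sham library, and Itgb1 never had fewer than 1565. All 10 smooth muscle markers examined were present, with summed values of 6602 to 8540 in 14-day Ang II libraries and 5402 to 7334 in 14-day sham libraries. Pancreatic acinar markers were abundant in every library. Their summed values at 14 days were 48037 to 89501 in Ang II libraries and 76688 to 160902 in sham libraries. Of the 12 markers 11 fell in the limma test described below, when 2.01% of all genes tested were called lower. A single transcript, AY036118, took 0.0788% to 13.2% of reads in 7-day Ang II and 0.113% to 36.2% in 7-day sham libraries. At 14 days it took 0.0431% to 0.934% in Ang II and 0.799% to 9.35% in sham libraries.

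To set genes beside each other, values were divided by exonic length, taken over all annotated transcripts of a gene. That length ran from 3553 bases for Itgb5 to 18599 for Itga1. The transcripts present were not determined, so the order of genes on this scale is approximate. Per kilobase of exon, Itgb1 was the most abundant of the 10 in every group. This common beta chain, the partner of Itga1, Itga5, Itga7, Itga8 and Itga11, had a level of 163 ± 9.37 per kb in 14-day Ang II arteries (SD, n = 5) and 133 ± 4.93 in 14-day sham arteries (n = 6). Itga8, an alpha chain of contractile smooth muscle that binds nephronectin and fibronectin, was second with 71.1 ± 20.3 per kb in Ang II and 49.4 ± 7.42 per kb in sham arteries. Itgb1 lay above Itga8 in every library of both groups, without overlap. Itgbl1 (44.6 per kb in Ang II, 34.9 in sham), a secreted protein built of the EGF-like repeats of beta chains, and Itgb5 (41.0 and 26.8), a beta partner of Itgav, followed and overlapped each other.

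The remaining 6 genes were lower. In 14-day Ang II arteries Itga5 had a mean of 22.6 per kb and Itgav 17.4, and their ranges overlapped. In 14-day sham arteries they stood at 11.3 and 12.2 per kb, so that the order of these neighbours was the other way round, within overlapping ranges. Itga1 (10.4 per kb in Ang II, 9.81 in sham) and Itga7 (10.2 and 9.14) were neighbours that overlapped in every group. Itga11 (6.47 and 3.196) and Itgb3 (6.34 and 4.58) were the least abundant, and at 14 days they overlapped as well.

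**Figure D1:**
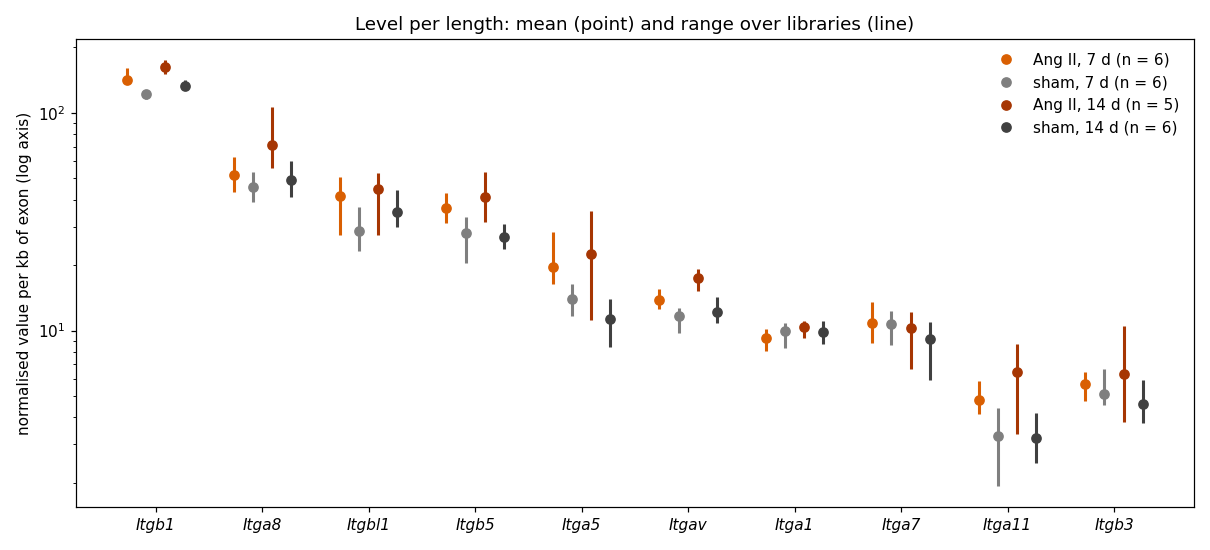
Normalized value per kilobase of exon (log axis) of the 10 genes, ordered by their mean in 14-day Ang II arteries. Points are group means and lines run from the lowest to the highest library. Itgb1 lies above all others in each group, and Itga11 and Itgb3 are lowest.

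After 14 days of Ang II, 6 of the 10 genes rose and 0 fell. They were Itgav, Itgb5, Itga11, Itga5, Itgb1 and Itga8, and all 10 log2 fold changes were positive, with a median of 0.45. Over all 14896 genes tested, 4.04% were called higher and 2.01% lower, and the median log2 fold change was 0.03. In 3 of the 10, Itgav, Itgb1 and Itgb5, every Ang II library lay above every sham library, as did 2.36% of all genes tested. Calls were made below 0.05 in limma's adjusted p, fitted on log2(value + 0.5) over all 23 libraries with Benjamini-Hochberg adjustment over all genes tested, so fold changes refer to that scale. In arteries measured whole, a rise of a transcript per cell and a larger share of the cells that carry it cannot be told apart.

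**Figure D2:**
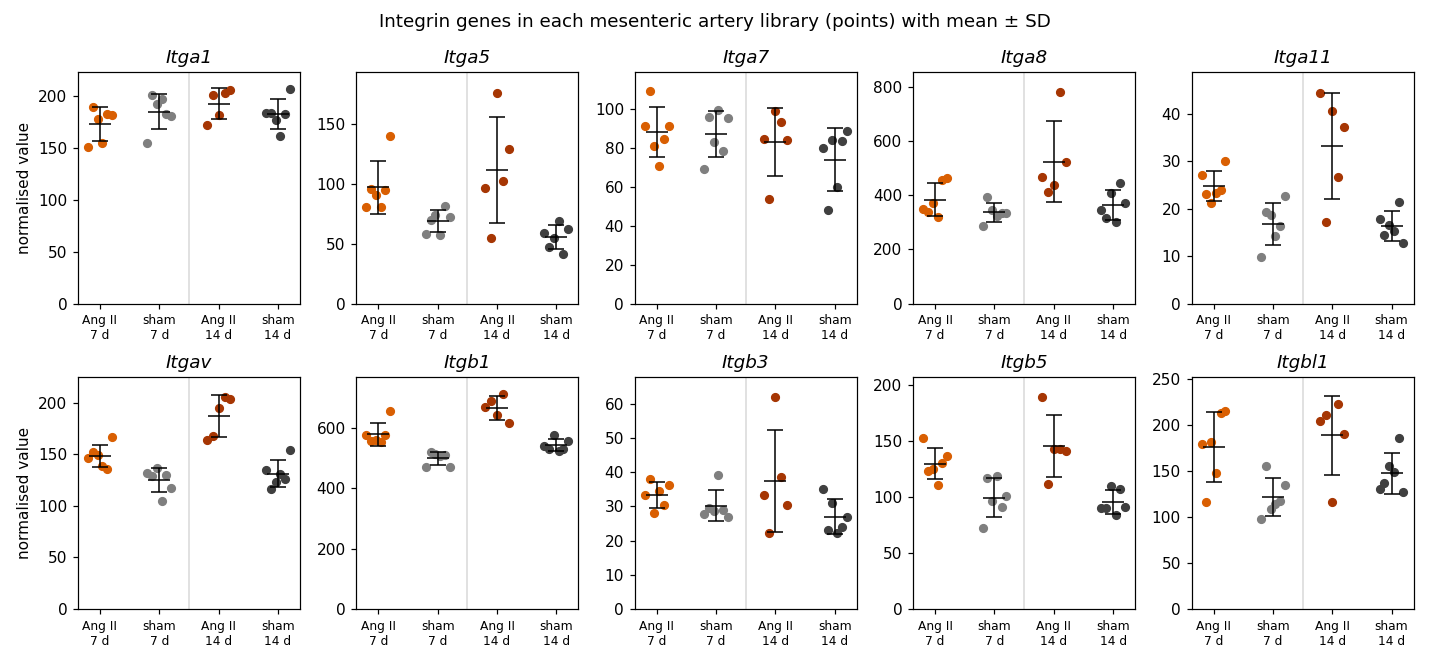
Normalized value of each gene in every library, with Ang II to the left of its sham group at 7 and at 14 days (points, libraries; bars, mean ± SD). Itgav, Itgb1 and Itgb5 do not overlap between Ang II and sham at 14 days, while Itga1 and Itga7 overlap at both times.

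Among the beta chains, Itgb1 (chromosome 8, positions 128685654 to 128733200, plus strand, mm10) had normalized values of 670, 689, 643, 713 and 615 in the 14-day Ang II libraries. In 14-day sham libraries the lowest was 523, the median 535 and the highest 577. The groups did not overlap: the lowest Ang II library was above the highest sham library. Itgb1 rose by 0.30 ± 0.07 on the log2 scale (SE; limma adjusted p = 0.0151), a small change in a gene whose spread was also small, with a coefficient of variation of 5.74% in Ang II and 3.71% in sham libraries. Its call rested on single libraries in part, since without Ang II replicate 4 the limma adjusted p was 0.052.

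Itgb5 (chromosome 16, positions 33829665 to 33949338, plus strand), which pairs with Itgav as a vitronectin receptor, had values of 189, 112, 143, 143 and 141 in the 14-day Ang II libraries. The 14-day sham libraries ran from 84.0 over a median of 90.7 to 110. Replicate 1 was the highest Ang II library and replicate 2 the lowest, just above the top of the sham range. Itgb5 rose by 0.59 ± 0.12 on the log2 scale, 1.51-fold (limma adjusted p = 0.00814).

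Itgb3 (chromosome 11, positions 104608000 to 104670476, plus strand), the other vitronectin-type beta partner of Itgav and the platelet fibrinogen receptor's beta chain, had values of 33.5, 22.4, 62.0, 38.6 and 30.5 in the Ang II libraries. Sham values ran from 22.2 over a median of 25.6 to 35.001. Only Ang II replicates 3 and 4 lay above all sham libraries, and replicate 2 was level with the lowest of them. The log2 fold change was 0.40 ± 0.17 and did not pass the test (limma adjusted p = 0.16). Without Ang II replicate 2 it was 0.56 with a limma adjusted p of 0.022. Summed values of 10 platelet markers were 30.9 to 85.6 in Ang II and 31.2 to 70.9 in sham libraries at 14 days, and 0 of the 5 markers tested passed. The highest of these sums, 85.6, was in Ang II replicate 3, the library with the highest Itgb3, and without it the log2 fold change of Itgb3 was 0.20 (limma adjusted p = 0.51). The part of platelet RNA in the Itgb3 values was not tested.

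Of the alpha chains that bind RGD ligands, Itgav (chromosome 2, positions 83724397 to 83806916, plus strand), the partner of Itgb3 and Itgb5, had the smallest adjusted p of the 10. Its values were 163, 168, 194, 205 and 204 in the 14-day Ang II libraries. In sham libraries the lowest was 116, the median 128 and the highest 154. All 5 Ang II libraries exceeded every sham library, and replicates 3, 4 and 5 formed the upper end. Itgav rose by 0.51 ± 0.09 on the log2 scale, 1.43-fold (limma adjusted p = 0.00164), and the adjusted p stayed between 0.00078 and 0.010 with each single 14-day library left out.

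Itga5 (chromosome 15, positions 103344286 to 103366763, minus strand), the alpha chain of the classical fibronectin receptor, had values of 96.3, 55.1, 175, 102 and 129 in the 14-day Ang II libraries. Its sham values ran from 41.3 over a median of 57.1 to 69.0. Ang II replicate 2 lay inside the sham range and the other 4 above it, so the groups overlapped through that library. Itga5 rose by 0.92 ± 0.20 on the log2 scale, 1.89-fold (limma adjusted p = 0.0116), and its coefficient of variation was 39.8% in Ang II against 18.005% in sham libraries. Replicate 3, its highest library, also had the largest neuron marker sum of the 14-day libraries, at 506, and without it the log2 fold change was 0.73 (limma adjusted p = 0.039).

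Itga8 (chromosome 2, positions 12106632 to 12301922, minus strand) had values of 468, 412, 437, 781 and 521 in the 14-day Ang II libraries. In sham libraries the lowest was 302, the median 358 and the highest 443. Replicate 4 stood far above the rest, and replicates 2 and 3 lay within the upper sham range. The log2 fold change was 0.50 ± 0.14 (limma adjusted p = 0.0392), and 0.34 with an adjusted p of 0.12 without replicate 4. It also missed the threshold without Ang II replicate 5 (adjusted p = 0.079) or without sham replicate 1, 2, 4 or 6 (adjusted p 0.055 to 0.086). An antisense gene, E030013I19Rik, overlaps 5.05% of its exonic length, and Gm13684 on the opposite strand overlaps 5.90% of that of Itgav. The strand setting of the counting is not given in the sources used here, so these reads cannot be assigned with certainty.

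The sequences just upstream of the genes that rose together are shown because Itga5, Itgav, Itgb1 and Itgb5 combine into fibronectin and vitronectin receptors. Each is the RefSeq promoter window on GRCm38.p6, 250 bases that end at the base before the start site, written 5′ to 3′ on the gene's strand. Capitals mark matches to GGGCGG, the GC box of Sp1-family factors, and to GGAATG, the element of TEAD factors, on either strand.
Itga5 (chr15:103366792-103367041, minus strand): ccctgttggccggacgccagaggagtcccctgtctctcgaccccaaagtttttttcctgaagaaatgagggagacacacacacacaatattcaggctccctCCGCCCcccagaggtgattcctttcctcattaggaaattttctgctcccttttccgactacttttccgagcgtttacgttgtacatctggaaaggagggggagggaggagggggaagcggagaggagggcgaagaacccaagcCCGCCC
Itgav (chr2:83724147-83724396, plus strand): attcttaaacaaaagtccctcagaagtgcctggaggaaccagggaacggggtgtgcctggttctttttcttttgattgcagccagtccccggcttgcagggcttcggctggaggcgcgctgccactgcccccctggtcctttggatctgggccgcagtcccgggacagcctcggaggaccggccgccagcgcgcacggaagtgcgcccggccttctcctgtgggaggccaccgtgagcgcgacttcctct
Itgb1 (chr8:128685404-128685653, plus strand): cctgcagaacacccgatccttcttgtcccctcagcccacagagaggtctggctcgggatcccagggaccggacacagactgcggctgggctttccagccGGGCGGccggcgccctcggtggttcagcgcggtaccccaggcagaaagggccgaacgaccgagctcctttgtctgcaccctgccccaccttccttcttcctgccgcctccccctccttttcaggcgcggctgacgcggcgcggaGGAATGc
Itgb5 (chr16:33829415-33829664, plus strand): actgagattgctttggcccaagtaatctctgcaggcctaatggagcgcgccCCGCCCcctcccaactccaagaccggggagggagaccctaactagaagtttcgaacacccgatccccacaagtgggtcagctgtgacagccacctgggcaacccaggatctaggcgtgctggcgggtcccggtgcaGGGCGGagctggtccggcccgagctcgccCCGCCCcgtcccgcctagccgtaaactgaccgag

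Promoter windows were found for 8 of the 10 genes, all but Itga7 and Itgb3. A GC box occurred in 4 of the 8 (Itga5, Itgb1, Itgb5 and Itgbl1) and in 32.7% of the 32851 promoters of the same length. GGAATG occurred in 1, Itgb1, at 1 base from the start site, and in 12.6% of all promoters. Neither TGANTCA, the AP-1 element, nor the CArG box of serum response factor was found in the 8 windows, against 6.75% and 1.47% of all promoters. Both strands were searched, and a match or its absence describes these letters only.

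The collagen and laminin receptor chains differed among themselves. Itga11 (chromosome 9, positions 62677826 to 62783982, plus strand), the fibrillar collagen receptor of fibroblasts, had values of 44.3, 17.1, 40.5, 26.7 and 37.3 in the 14-day Ang II libraries. Sham values ran from 12.7 over a median of 15.9 to 21.5. Replicate 2 was the only Ang II library inside the sham range. Itga11 rose by 0.94 ± 0.21 on the log2 scale, 1.92-fold (limma adjusted p = 0.0106), the largest log2 fold change of the 10 at this time.

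Itga1 (chromosome 13, positions 114953096 to 115101964, minus strand), the basement membrane collagen receptor of smooth muscle, had values of 172, 201, 182, 202 and 206 in the Ang II libraries. Sham values ran from 161 over a median of 183 to 206.5. No Ang II library lay above all sham libraries, and the log2 fold change was 0.08 ± 0.08 (limma adjusted p = 0.59). Itga7 (chromosome 10, positions 128933818 to 128958282, plus strand), the laminin receptor chain of muscle, had values of 84.7, 53.9, 98.8, 93.0 and 84.1 in Ang II libraries, against a lowest of 47.9, a median of 81.7 and a highest of 88.6 in sham libraries. The ranges overlapped almost fully, and the log2 fold change was 0.17 ± 0.16 (limma adjusted p = 0.54). Sham replicate 4 held skeletal and cardiac muscle transcripts with a summed value of 633, against 3.70 to 18.5 in the other 22 libraries. Its Itga7 value was 59.9, the second lowest of its group. Without that library the log2 fold change of Itga7 was 0.11. The part of these muscle transcripts in the Itga7 values was not tested. Exons of Itga1 share 3.68% of their length with Gm49395 on the same strand, which leaves that part of its reads uncertain.

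Itgbl1 (chromosome 14, positions 123659971 to 123975618, plus strand) had values of 204, 211, 116, 223 and 190 in the 14-day Ang II libraries. In sham libraries the lowest was 127, the median 143 and the highest 187. Replicate 3 lay below all sham libraries and the other 4 above all of them. The log2 fold change was 0.33 ± 0.17 (limma adjusted p = 0.22), and 0.50 with an adjusted p of 0.072 without replicate 3.

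At 7 days 0 of the 10 genes passed the limma test, 6 had an unadjusted p under 0.05, and edgeR's quasi-likelihood test on the recovered reads also called 0. Over all genes tested 0.819% were called, 112 (0.752%) higher and 10 (0.0671%) lower. Of these 14896 genes, 1383 had an unadjusted p under 0.05. The log2 fold change was positive in 9 of the 10 genes with a median of 0.23, against 0.00 over all genes tested. DESeq2 called 1 of the 10, Itgb1, at 0.20 and an adjusted p of 0.012.

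Itgb1 was the single gene whose groups did not overlap at 7 days, a pattern seen in the upward direction in 1.08% of all genes tested. Its 7-day Ang II libraries ran from 554 over a median of 567 to 655, against 471, 509 and 519 in 7-day sham libraries. The log2 fold change was 0.21 ± 0.07 (limma adjusted p = 0.17). Itgb5 ran from 111 over 128 to 153 in Ang II and from 72.4 over 98.7 to 119 in sham libraries, with 5 of 6 Ang II libraries above every sham library and a log2 fold change of 0.40 ± 0.12 (limma adjusted p = 0.15). Itgav, at 0.25 ± 0.08 (limma adjusted p = 0.22), likewise had 5 of 6 Ang II libraries above the sham range.

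The largest 7-day log2 fold change was that of Itga11, at 0.58 ± 0.20 (limma adjusted p = 0.24), with 21.2 to 29.96 in Ang II and 9.91 to 22.6 in sham libraries. Itgbl1 had 117 to 215 in Ang II and 97.9 to 156 in sham libraries, a log2 fold change of 0.52 ± 0.16 (limma adjusted p = 0.16). Without Ang II replicate 2, its lowest Ang II library, the change was 0.63 with an adjusted p of 0.048. For Itga5 the Ang II libraries ran from 80.7 to 140 and the sham libraries from 57.6 to 81.1, and the log2 fold change was 0.48 ± 0.19 (limma adjusted p = 0.40). Its top value came from replicate 6, which was also the highest 7-day Ang II library for Itga8, Itga11, Itgav, Itgb1 and Itgbl1.

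The remaining genes differed least at 7 days. Itga8 stood at 383 ± 61.1 in Ang II and 337 ± 34.8 in sham arteries (SD, n = 6 each), with 0.18 as log2 fold change, and Itgb3 at 33.4 ± 3.75 and 30.2 ± 4.52, a log2 fold change of 0.15. Itga7 averaged 88.0 ± 12.8 in Ang II and 86.9 ± 11.8 in sham arteries, and Itga1, the only gene with a negative 7-day log2 fold change (-0.09), averaged 173 ± 16.2 and 185 ± 16.8. Sham replicate 1 was the lowest 7-day sham library for 7 of the 10 genes and had a summed neuron marker value of 1251, against 26.1 to 506 in the other libraries. Without it 8 of the 10 log2 fold changes were positive with the same median, Itga11 stood at 0.44 and Itgb5 at 0.31. The part of these neuron transcripts in the result was not tested.

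**Figure D3:**
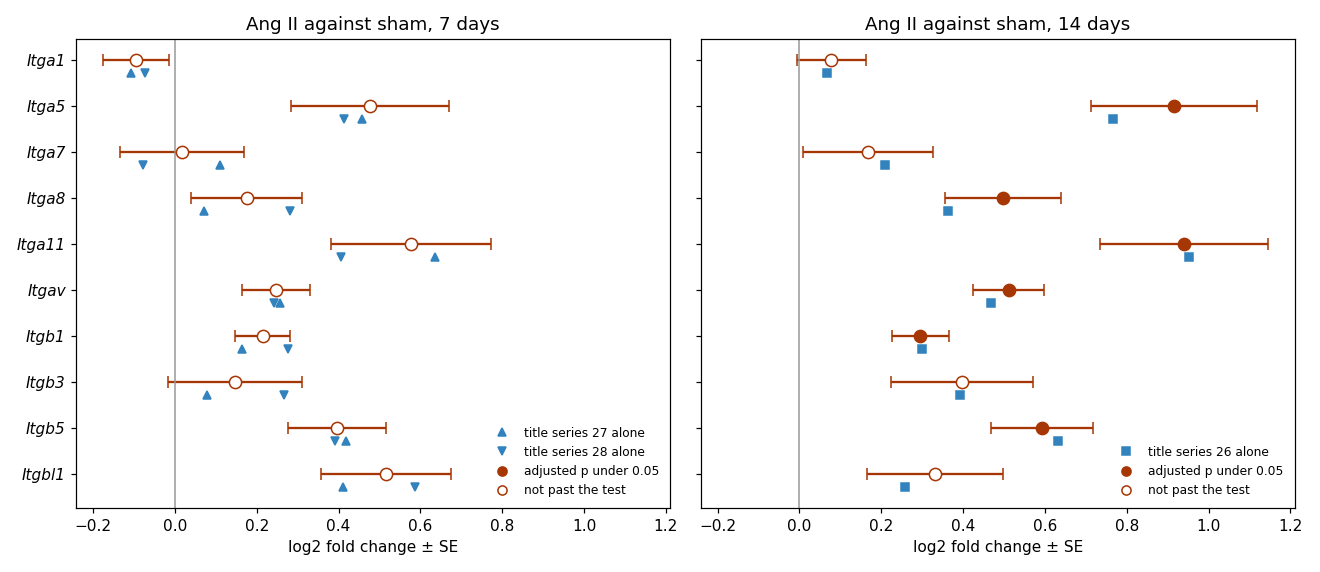
Log2 fold change ± SE of Ang II against sham for each gene (circles; filled where the limma adjusted p is under 0.05), with the difference within each title series that held both groups (blue). All 6 filled circles are at 14 days, and the values within title series 26 lie on the same side of 0 as the fit.

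The change in response between the times was tested directly. The 14-day minus the 7-day response was positive in 9 of the 10 genes with a median of 0.22 on the log2 scale, but 0 passed the limma test (adjusted p 0.52 to 0.82). Over all genes tested 0% passed, with 1396 at an unadjusted p under 0.05, 1 of the 10 genes among them. Of all genes edgeR also called 0 and DESeq2 called 7, and DESeq2 called 0 of the 10. The largest such difference was 0.44 ± 0.28 for Itga5, and Itgav, the gene with an unadjusted p under 0.05, stood at 0.26 ± 0.12 (limma adjusted p = 0.52). Itgbl1 was the exception in direction at -0.19 ± 0.23. Sham arteries at 14 against 7 days gave 0 calls among the 10 (limma adjusted p 0.69 to 0.99) and 0% over all genes tested, with 1128 at an unadjusted p under 0.05. Their log2 differences ran from -0.31 for Itga5 to 0.28 for Itgbl1.

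Titles carry a number whose first 2 digits form series, which the labels do not explain. At 14 days only series 26 held both groups, with 3 Ang II and 4 sham libraries, and Ang II replicates 4 and 5 belonged to series 30, which held no sham library. Both series 30 libraries lay above the Ang II libraries of series 26 for Itga8 (521 and 781, against 412 to 468). The same held for Itgav (204 and 205, against 163 to 194) and Itga1 (202 and 206, against 172 to 201). In the other genes the 2 series overlapped. Within series 26 all 10 differences were positive with a median of 0.38 on the log2 scale, among them 0.95 for Itga11, 0.77 for Itga5, 0.63 for Itgb5, 0.47 for Itgav, 0.36 for Itga8 and 0.30 for Itgb1. There the groups of Itgav, Itgb1, Itgb5 and Itga8 did not overlap. With 3 against 4 libraries this is met more easily than in the full groups, and its share over all genes was not computed. With the title series as a term of the fit 0 of the 10 passed (limma adjusted p 0.071 to 0.28 for the 6 genes), and 16 of all genes did. At 7 days the median difference was 0.21 within series 27, with 9 of 10 positive, and 0.28 within series 28, with 8 of 10 positive.

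Shares of the summed RNA level per kilobase were compared among the alpha and the beta chains of the 10 genes. They are not shares of all integrins, since other subunits were left out. In 14-day Ang II arteries Itga9 had a mean normalized value of 196 against 187 for Itgav, and Itgb4 79.0 against 37.4 for Itgb3. Itga8 supplied 51.2% ± 7.19 of the 6 alpha chains in 14-day Ang II arteries and 51.8% ± 3.78 in sham arteries. The share of Itga5 was 16.2% ± 5.64 in Ang II and 12.0% ± 2.66 in sham arteries, and that of Itga1 was 7.71% ± 1.61 and 10.4% ± 1.01. Among the 3 beta chains Itgb1 supplied 77.6% ± 3.48 in Ang II and 80.9% ± 1.29 in sham arteries, and Itgb5 19.4% ± 3.10 and 16.3% ± 1.29. The fibroblast collagen receptor chain Itga11 stood at 0.64 ± 0.25 of the level of Itga1 in 14-day Ang II arteries and 0.33 ± 0.07 in sham arteries, and at 0.52 ± 0.09 and 0.33 ± 0.08 at 7 days. These shares were given as descriptions and were not tested.

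Pairs of these genes moved together to different degrees over the 23 libraries, which share depth and treatment as well as biology. Itga11 and Itgb5 had a Pearson r of 0.87, and 0.69 when each library was set against its own group mean. Itgav and Itgb1 had 0.81, but 0.18 within groups. Itga7 and Itgb3 had 0.65 on both measures, and Itgb3 and Itgbl1 ran opposite to each other within groups, at -0.52. Itgb1 and Itgav also had an r of 0.63 and 0.60 with log2 read depth, which was higher in Ang II libraries, and the part of depth in their result was not tested.

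The genes most like each member over the 23 libraries were ranked by Pearson r of log2 values. For Itga11 they were Pdgfrb (0.94), the platelet-derived growth factor receptor of mesenchymal cells, Ssc5d (0.93) and Svep1 (0.92). For Itgb5 they were the collagen gene Col12a1 (0.93), the microfibril protein gene Ltbp2 (0.91) and Lepre1 (0.90), a collagen prolyl hydroxylase. Itga5 was most like Vcl (0.92), which encodes the adhesion adaptor vinculin, then Synpo (0.89) and Igsf9b (0.88). Itgav was most like Uhrf1bp1l (0.92), Stk38l (0.90) and Mef2a (0.87), and Itgb1 most like 9530068E07Rik (0.92), Cd109 (0.87) and the growth factor gene Fgf2 (0.86). Within groups r was lower, at 0.84, 0.58 and 0.58 for these genes with Itgav and 0.62, 0.38 and 0.39 with Itgb1. For the genes named beside the other members, r within groups ran from 0.76 to 0.89.

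Itga8 was closest to Mtus2 (0.89), Ccdc3 (0.88) and Susd5 (0.88), and Itgb3 to the actin regulator gene Coro1c (0.88), Sh3pxd2a (0.86) and Tnip1 (0.82). Itgbl1 stood nearest to Twsg1 (0.89), Serpinf1 (0.87) and Colec12 (0.86). The collagen receptor chain Itga1 was most like Zak (0.83), Rasl12 (0.82) and Pcp4l1 (0.81), and the laminin receptor chain Itga7 was like Cd97 (0.82) and Fbln2 (0.82), a matrix protein gene.

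Among the other integrin subunits Itga9 rose. Of 18, 16 were tested, and 1 rose and 0 fell at 14 days (6.25%, against 6.06% of all genes tested), with a median log2 fold change of 0.36. Itga9, a chain that binds tenascin and other ligands, averaged 196 ± 43.7 in Ang II arteries (SD, n = 5) and 105 ± 13.9 in sham arteries (n = 6), a log2 fold change of 0.88 ± 0.15 (limma adjusted p = 0.00161). Its lowest Ang II library, at 129, was above its highest sham library, at 122. At 7 days 0 of 16 passed in limma and 0 in edgeR. The leukocyte-restricted Itgad and Itgb2l were below the filter, with no value above 0.122.

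Ligands of these receptors were among the genes that changed. Of 19 RGD-type and fibronectin-family ligands tested, 8 rose and 2 fell at 14 days, when 4.04% of all genes tested were called higher and 2.01% lower, and their median log2 fold change was 0.57. Fibronectin, Fn1, averaged 1530 ± 548 in Ang II and 479 ± 114 in sham arteries, a rise of 1.60 on the log2 scale (limma adjusted p = 0.00176). Tnc rose by 1.79, Postn by 1.32, Ctgf by 1.27, Fbln5 by 0.61 and Nov by 0.57. Vtn and Spp1, named after their values were seen, fell by 0.64 and by 1.09. Vtn encodes vitronectin, and averaged 15.3 ± 3.52 in Ang II and 23.8 ± 2.48 in sham arteries. Every Ang II library lay below every sham library, as in 1.29% of all genes tested. At 7 days 3 of 19 rose and 0 fell, against 0.752% of all genes called higher: Postn by 1.15, Fbn1 by 0.76 and Fbln5 by 0.75.

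Of 19 collagen and laminin ligands tested, 7 rose and 0 fell at 7 days, when 0.752% of all genes tested were called higher. The 7 were collagens. At 14 days 10 rose and 0 fell, when 4.04% of all genes were called higher, and the median log2 fold changes were 0.57 at 7 and 0.58 at 14 days. Col1a1 averaged 983 ± 269 in Ang II and 378 ± 121 in sham arteries at 7 days, a rise of 1.42, and rose by 1.39 at 14 days (limma adjusted p = 0.00437 and 0.00531). Col3a1 rose by 1.27 and by 1.02, Col1a2 by 1.15 and by 1.07, and Col5a2 by 0.90 and by 0.76. Col5a1 was called at 0.99 and 0.87 and Col6a3 at 0.78 and 0.80 at 7 and 14 days. Col6a1 was called at 7 days, at 0.57, and the basement membrane chain Col4a2 at 14 days, at 0.83.

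Inside the cell, 0 of 36 cytoplasmic adaptors passed at 7 days in limma, when 0.819% of all genes did, and 0 passed in edgeR and 1 in DESeq2. At 14 days 6 rose and 0 fell, when 4.04% of all genes rose, with a median log2 fold change of 0.28. The 14-day count was 10 in DESeq2, 13 without AY036118 and acinar reads in the scaling and 2 with only the groups compared. Over all genes tested, 1795, 2173 and 343 were called in these settings, against 902 in the limma test. Ilk, the integrin-linked kinase, averaged 81.5 ± 10.2 in Ang II and 59.2 ± 5.91 in sham arteries, a rise of 0.45 (limma adjusted p = 0.00795). Actn1 rose by 0.93, Fermt3 by 0.72, Dab2 by 0.54, Vcl by 0.53 and Tns3 by 0.34. Of 18 membrane proteins that associate with integrins, 3 rose and 1 fell at 14 days, beside 4.04% of all genes called higher and 2.01% lower (median log2 fold change 0.03). Sdc3 rose by 0.84, Lrp1 by 0.66 and the collagen receptor kinase Ddr2 by 0.32, whereas the syndecan Sdc4, a co-receptor for fibronectin, fell by 0.40.

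With the title series as a term of the fit, the 14-day counts were 1 for RGD ligands and 0 for collagen and laminin ligands, adaptors, membrane proteins and other integrin subunits. The list counts also rested in part on single libraries, as did the count over all genes tested. Of all genes, 902 were called at 14 days, and 2191, 414, 397 and 442 without Ang II replicates 2, 3, 4 and 5. Without sham replicates 1, 2, 3, 4 and 6 there were 959, 544, 503, 522 and 623. At 7 days 122 of all genes were called, and 68 without Ang II replicate 1 or 6. The adaptor count was 16 without Ang II replicate 2, 1 without replicate 3 and 3 without replicate 5. The collagen and laminin count was 5, 6 and 6 without Ang II replicates 3, 4 and 5, and at 7 days 4 without Ang II replicate 1 or 6. The RGD ligand count was 6 without replicate 4. Other integrin subunits gave 4 calls without Ang II replicate 2 and 3 without sham replicate 1. The membrane protein count was 8 without Ang II replicate 2, 1 without Ang II replicate 3, 4 or 5 or sham replicate 4 or 6, and 2 without sham replicate 2 or 3.

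**Figure D4:**
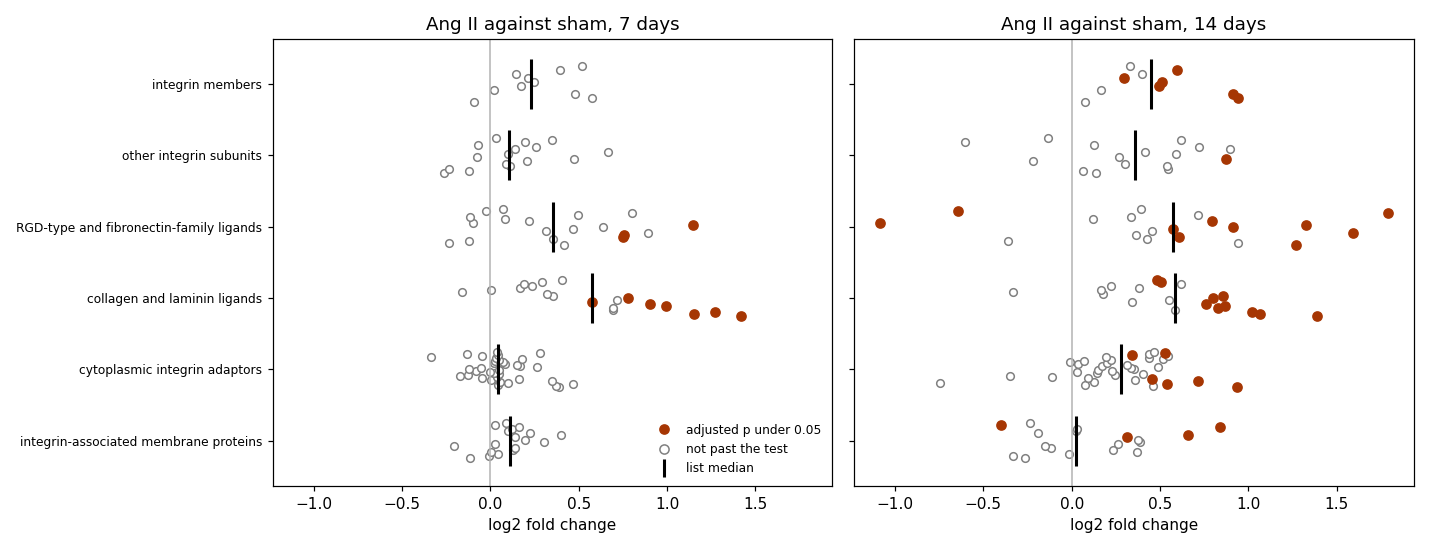
Log2 fold change of every tested gene of each list at 7 and 14 days (filled where the limma adjusted p is under 0.05; vertical bars, list medians). The ligand lists hold the largest changes at both times, while filled adaptors and integrin members appear at 14 days.

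Some markers of the cells that carry these receptors also moved. Of all genes tested, 0.752% were called higher at 7 days, and 4.04% higher and 2.01% lower at 14 days. Of 10 fibroblast markers, 4 rose at 7 days (Lum, Pi16, Col14a1 and Mfap5) and 3 at 14 days (Lum, Pi16 and Col14a1), and 0 passed as lower. At 14 days 6 of their log2 fold changes were positive and 4 negative (Dcn, Dpt, Ly6a and Gsn), with a median of 0.06. Summed values of the fibroblast markers overlapped, at 6038 to 8430 in 14-day Ang II and 6658 to 7753 in 14-day sham libraries. Of 8 pericyte markers, 3 rose at 14 days (Abcc9 by 0.82, Cspg4 by 0.93 and Pdgfrb by 0.64) and 1, Vtn, fell, with sums of 786 to 1390 in Ang II and 689 to 960 in sham libraries. Of 10 smooth muscle markers 2 rose at 14 days, Des by 0.55 and Actg2 by 0.49. Of 9 macrophage markers tested 1 rose, Csf1r by 0.62, with sums of 566 to 1206 in Ang II and 476 to 705 in sham libraries, and 0 of 10 endothelial markers passed. The part of these marker changes, and of the lower acinar signal, in the integrin result was not tested. With AY036118 and acinar reads left out of the scaling, the same 6 genes were called at 14 days, and the median log2 fold change was 0.57 over the 10 and 0.15 over all genes tested.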

How the data were processed

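Total RNA libraries of mesenteric arteries were grouped by the treatment label. Build mm10 and the tools edgeR 3.6.8, HTSeq 0.5.3p3, STAR 2.3.1, R 3.2.3, FastQC and bcl2fastq 1.8.4 are named in the submitters' processing notes. Gene models, strand setting and scaling were not given in the sources used here. The authors deposited 1 signal value per gene and library, which is the gene's read count divided by 1 factor per library. Dividing by the value of 1 read gave whole reads for 100% of the 460324 nonzero values (within 0.001 read). Tests were run with limma 3.58.1 (trended, robust) in R 4.3.3 on log2(value + 0.5), for genes with a value of at least 1 in at least 5 libraries, in 1 fit of 4 group means over 23 libraries, with Benjamini-Hochberg adjustment per contrast. edgeR 4.0.16 and DESeq2 1.42.0 on recovered reads were alternatives, and the fits were tested on simulated data. The 2 Ang II comparisons share no libraries, whereas the difference between times and the sham comparison use them again. Titles differ in number between libraries, and where libraries are not separate animals p-values measure technical spread.

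The 10 genes, the lists and the markers were chosen with earlier results of these data known. Named genes are the 10, the members of each other list called at either time (at most 6 per list and time, by smallest p), and the 3 genes most like each of the 10 by Pearson r, of which 1 is not reported here. Gene positions and exonic lengths are from GENCODE M21 on GRCm38, and promoter windows from RefSeq. Marker lists for mesothelial, adipocyte, lymphocyte, Schwann, neuron and erythroid cells gave 0 calls in limma at either time, as did the skeletal and cardiac muscle list.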

Additional observations from a re-analysis of the deposited data

Results flagged for a closer look

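In 3 of 40 sets of 1 gene in 1 group, a single library stood apart from the rest of its group by Dixon's criterion, which chance meets in about 1 set in 20. Itga5 had a value of 140 in 7-day Ang II replicate 6, against 80.7 to 95.9 in the other 5 libraries. Itgb1 had 655 in the same library, against 554 to 577 in the others. Itgb3 had 39.2 in 7-day sham replicate 4, against 26.8 to 29.6 in the others. That library also had the highest summed platelet markers of all 23, at 85.7 against 34.8 to 68.5 in the other 7-day sham libraries, and the highest erythroid sum, at 6522, and the part of blood RNA in this value was not tested. Without Ang II replicate 6 the 7-day log2 fold changes were 0.37 for Itga5 and 0.18 for Itgb1, and without sham replicate 4 that of Itgb3 was 0.22.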

How the results depend on the processing

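No paired analysis was possible because the labels give no replicate numbers that pair libraries. The 14-day count of 6 was 6 in edgeR and DESeq2, 5 with TMM scaling or no filter and 4 with upper-quartile scaling. It was 3 when only the groups compared were fitted, 0 with the title series as a term and 0 within series 26, and 4 to 7 with single libraries left out. With only the groups compared, Itga5, Itgb1 and Itga8 were not called (limma adjusted p = 0.060, 0.074 and 0.11). Upper-quartile scaling lost Itgb1 and Itga8 (limma adjusted p = 0.060 and 0.071). TMM scaling and no filter each lost Itga8 (limma adjusted p = 0.057 in both). The 7-day count of 0 was 1 in DESeq2 and 0 to 1 with single libraries left out. The log2 fold changes kept their sign at 14 days under all settings run. At 7 days Itga7 was -0.078 within series 28 and -0.047 to 0.077 with single libraries left out. In the sham comparison the sign turned for Itga1 (0.022 with upper-quartile scaling, 0.0082 with TMM, 0.076 with series as a term, 0.19 in series 28), Itga7 (0.0081 with the term, 0.037 in series 28), Itga11 (0.022 with upper-quartile scaling, 0.0089 with TMM, 0.0063 with the term, 0.50 in series 27) and Itgb5 (0.025 with the term, 0.11 in series 27). With single libraries left out these ranged from -0.065 to 0.020 for Itga1, -0.15 to 0.079 for Itga11 and -0.13 to 0.0077 for Itgb5. The cause of these changes was not tested. Over all genes the 14-day split of 602 higher and 300 lower was 1029 and 766 in DESeq2, 424 and 368 with upper-quartile scaling, 1965 and 208 without AY036118 and acinar reads, 258 and 85 with only the groups compared, and 14 and 2 with the term. The 7-day split was 173 and 39 in DESeq2. At 14 days other integrin subunits gave 1 call, and 4 in edgeR, 5 in DESeq2 and 6 without AY036118 and acinar reads. Membrane proteins gave 4, and 7 in DESeq2, 2 with upper-quartile scaling or no filter and 1 with only the groups compared, and collagen and laminin ligands gave 10 and, with only the groups compared, 4. RGD ligands gave 3 at 7 days and 5 in DESeq2. The difference of responses could not be fitted on only the groups compared, since it needs all 4. Depth limits Itga11 and Itgb3 most, at 50 and 89 reads in their shallowest libraries.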
